A study of Mus musculus with 24 samples.

Results

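The 10 genes described here belong to the epithelial injury response: the simple-epithelium keratins Krt7, Krt8, Krt18 and Krt19, the epidermal growth factor (EGF) family ligands Areg and Hbegf, the transitional-state genes Lgals3, Clu and Itgb6, and the tight junction gene Cldn4. They were picked by symbol in the annotation that accompanies the counts, were all found there, and make up 10 of the 57010 genes counted. All 10 passed the filter on low counts that left 23831 genes for testing. RNA was sequenced from perfused lungs of newborn C3H/HeN mice in 8 groups of 3 libraries. Their parents ate a selenium-deficient diet (SeD, under 0.01 ppm sodium selenite) or a selenium-sufficient diet (SeS, 0.4 ppm) from weaning age, and the pups breathed hyperoxia (O2, an inspired oxygen fraction of 0.85) or room air (RA, 0.21) from birth. Lungs were taken on postnatal day 3 (PN3) or postnatal day 1 (PN1). The groups were therefore SeD O2, SeD RA, SeS O2 and SeS RA at PN3 and the same 4 at PN1, and the study asked how selenium deficiency alters the response of the newborn lung to oxygen. The labels do not say whether replicate pups came from separate litters, so p-values measure the spread between these pups. SeS O2 PN1 replicate 2 carries the room air fraction in its oxygen label but hyperoxia in its title, and it was placed by its title.

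Keratins 8 and 18 pair with each other to form the intermediate filaments of simple epithelia, and keratins 7 and 19 are further type II and type I partners found in airway and alveolar lining cells. When the alveolar lining is injured, type 2 cells that are on their way to becoming type 1 cells pass through an intermediate state, known in mouse models as a Krt8-high or transitional state, in which keratins, Lgals3, Clu, Itgb6, Cldn4 and Areg are raised. Areg and Hbegf are membrane-bound precursors that are shed to activate the EGF receptor, and integrin beta 6 pairs with alpha v to release active TGF-beta. Lgals3 encodes galectin-3, a lectin that macrophages make in quantity, and Clu encodes clusterin, a secreted chaperone that liver also makes.

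Promoter sequence was available from RefSeq (table build GRCm38.p6) for 7 of the 10 genes, all but Krt19, Hbegf and Clu. The 250 bases before the RefSeq start are printed for Krt8 and Krt18, which lie next to each other on chromosome 15 and form 1 filament, and for Lgals3 and Areg, the other genes with an entry that rose under hyperoxia at PN3. Each window matched GRCm39 exactly at 1 place on its chromosome: Krt8 at chr15:101912778-101913027 on the minus strand, Krt18 at chr15:101936401-101936650, Lgals3 at chr14:47611067-47611316 and Areg at chr5:91287208-91287457, these 3 on the plus strand. Capitals mark any match, on either strand, to 6 motifs. The TATA box was searched as TATAAA, the cyclic AMP response element as TGACGTCA and the AP-1 motif as TGA and TCA around any single base. The antioxidant response element was searched as TGACNNNGC, the TEAD motif (12.6% of all windows) as GGAATG and the GC box as GGGCGG.
Krt8: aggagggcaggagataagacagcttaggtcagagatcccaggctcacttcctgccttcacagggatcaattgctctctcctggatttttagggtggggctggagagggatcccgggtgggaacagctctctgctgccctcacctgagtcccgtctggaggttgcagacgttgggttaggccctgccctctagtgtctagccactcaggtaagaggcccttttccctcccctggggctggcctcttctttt
Krt18: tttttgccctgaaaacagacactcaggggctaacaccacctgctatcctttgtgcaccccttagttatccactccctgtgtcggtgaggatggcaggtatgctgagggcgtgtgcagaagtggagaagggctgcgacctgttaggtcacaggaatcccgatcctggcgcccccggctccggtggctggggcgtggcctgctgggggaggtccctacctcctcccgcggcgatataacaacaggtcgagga
Lgals3: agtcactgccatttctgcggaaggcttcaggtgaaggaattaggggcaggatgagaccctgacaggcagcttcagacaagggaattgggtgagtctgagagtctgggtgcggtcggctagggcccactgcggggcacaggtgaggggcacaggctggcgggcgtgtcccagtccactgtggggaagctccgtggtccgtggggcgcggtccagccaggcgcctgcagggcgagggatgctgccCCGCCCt
Areg: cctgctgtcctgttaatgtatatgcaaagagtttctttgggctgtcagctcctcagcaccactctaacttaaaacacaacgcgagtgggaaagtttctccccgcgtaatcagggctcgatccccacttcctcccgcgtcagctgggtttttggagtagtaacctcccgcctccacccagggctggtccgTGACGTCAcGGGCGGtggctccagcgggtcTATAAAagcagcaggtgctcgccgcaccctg
The Areg window held a cyclic AMP response element 61 to 54 bases before the start, a GC box beside it and a TATA box 31 to 26 bases before the start, and the Lgals3 window held a GC box. The Krt8 and Krt18 windows held none of the 6. The response element was found in 1.55% of the 32851 windows in the table, TATAAA in 12.4% and the GC box in 32.7%. Of the other members with a window, Krt7 and Cldn4 also held the GC box, Cldn4 held 2 AP-1 matches (6.75% of all windows hold at least 1) and Itgb6 held the antioxidant motif (10.2%). These are matches of letters in this window only.

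The libraries held between 26.0 and 50.4 M counts over genes. All 24 were lung by their markers: Sftpc, the surfactant protein C gene of type 2 cells, lay between 7122 and 19496 CPM (counts scaled to library size by TMM). A pair of libraries stood apart and touch these genes directly. SeD O2 PN1 replicate 3, which also had the most counts, summed 668 CPM over 19 genes of the upper layers of squamous epithelium, against 23.4 to 78.4 CPM in the other 23 libraries, and held 257 CPM of Krt13 and 76 CPM of Sprr3, each under 0.5 CPM in the other 23 libraries. SeD O2 PN3 replicate 1 summed 89726 CPM over 10 liver genes, of which Alb alone gave 40173 CPM. The next highest liver sums were 9252 and 5926 CPM in SeD O2 PN1 replicates 1 and 2 and 2416 CPM in SeS RA PN3 replicate 3, and the remaining 20 libraries had 168 to 882 CPM. Krt8, Krt18 and Clu are also transcribed in liver, and squamous epithelia transcribe several of the members, so the main results that rest on these libraries are given with and without them.

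**Figure D1:**
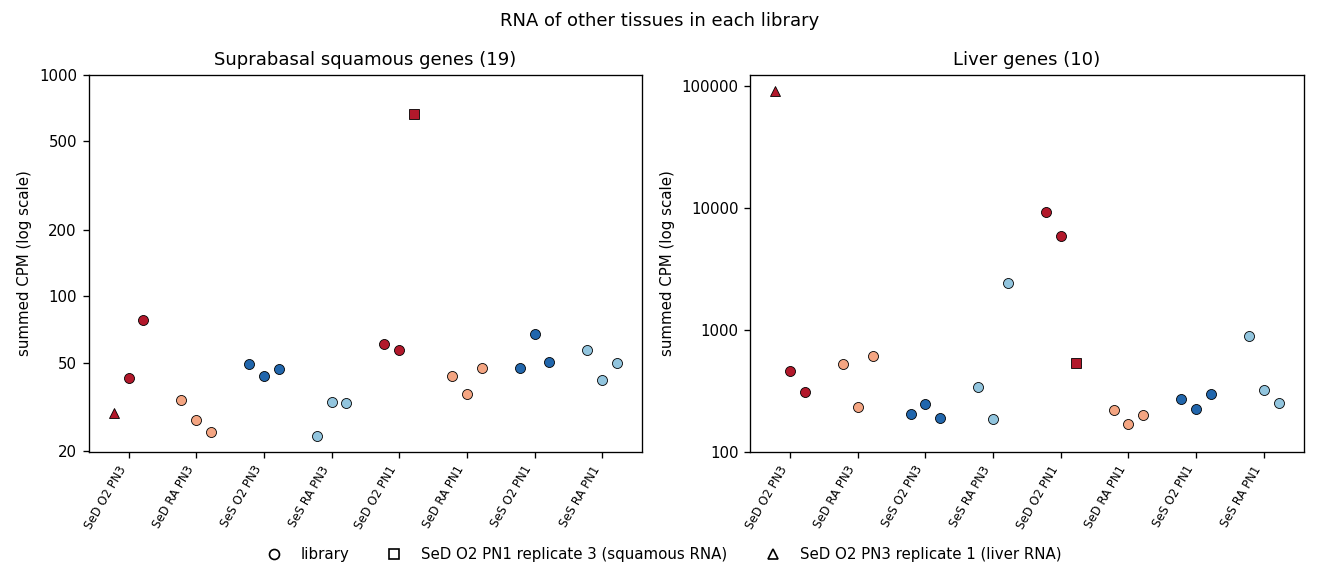
Summed CPM of 19 suprabasal squamous genes (left) and 10 liver genes (right) in each of the 24 libraries, on log axes. The square, SeD O2 PN1 replicate 3, reached 668 CPM of squamous genes and the triangle, SeD O2 PN3 replicate 1, reached 89726 CPM of liver genes.

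Per length of transcript, the 4 keratins and Lgals3 were the abundant members. Median levels over the 24 libraries were 163 RPKM (CPM per kilobase of transcript) for Krt19, 149 for Krt7, 141 for Krt8, 99.97 for Lgals3 and 94.4 for Krt18. They were 35.7 RPKM for Clu, 28.2 for Itgb6, 7.59 for Cldn4, 7.01 for Hbegf and 1.47 for Areg. Areg was thus the least precise member, with 20 to 203 counts per library, and its biological coefficient of variation was 0.42, against 0.17 to 0.25 for the other 9. Values below are CPM in replicate order unless stated.

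At PN3 hyperoxia raised 5 of the 10 genes in SeD lungs (Krt8, Krt18, Lgals3, Areg and Clu) and 3 of the 10 in SeS lungs (Krt18, Lgals3 and Areg), and lowered none. A gene was called where edgeR's quasi-likelihood test gave a Benjamini-Hochberg adjusted p under 0.05 over all genes tested and the log2 fold change was beyond 0.25. By that rule 35.9% of all genes tested were called in SeD lungs (23.7% as higher and 12.2% as lower) and 27.6% in SeS lungs (16.1% as higher and 11.5% as lower), so the SeS count lies close to the share over all genes. The median log2 fold change of the 10 was 0.54 in SeD lungs and 0.32 in SeS lungs, beside 0.05 and 0.04 over all genes tested. Since whole lung was sequenced, fewer or more cells of a type and less or more RNA per cell cannot be told apart in any of these values. In SeD lungs 3 of the 10 (Krt8, Krt18 and Clu) were higher in every O2 library than in any RA library, a pattern shown by 25.7% of all genes tested. In SeS lungs 7 of the 10 did so, against 28.4% of all genes, and Hbegf lay lower in all 3 O2 libraries, as did 21.5% of all genes.

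**Figure D2:**
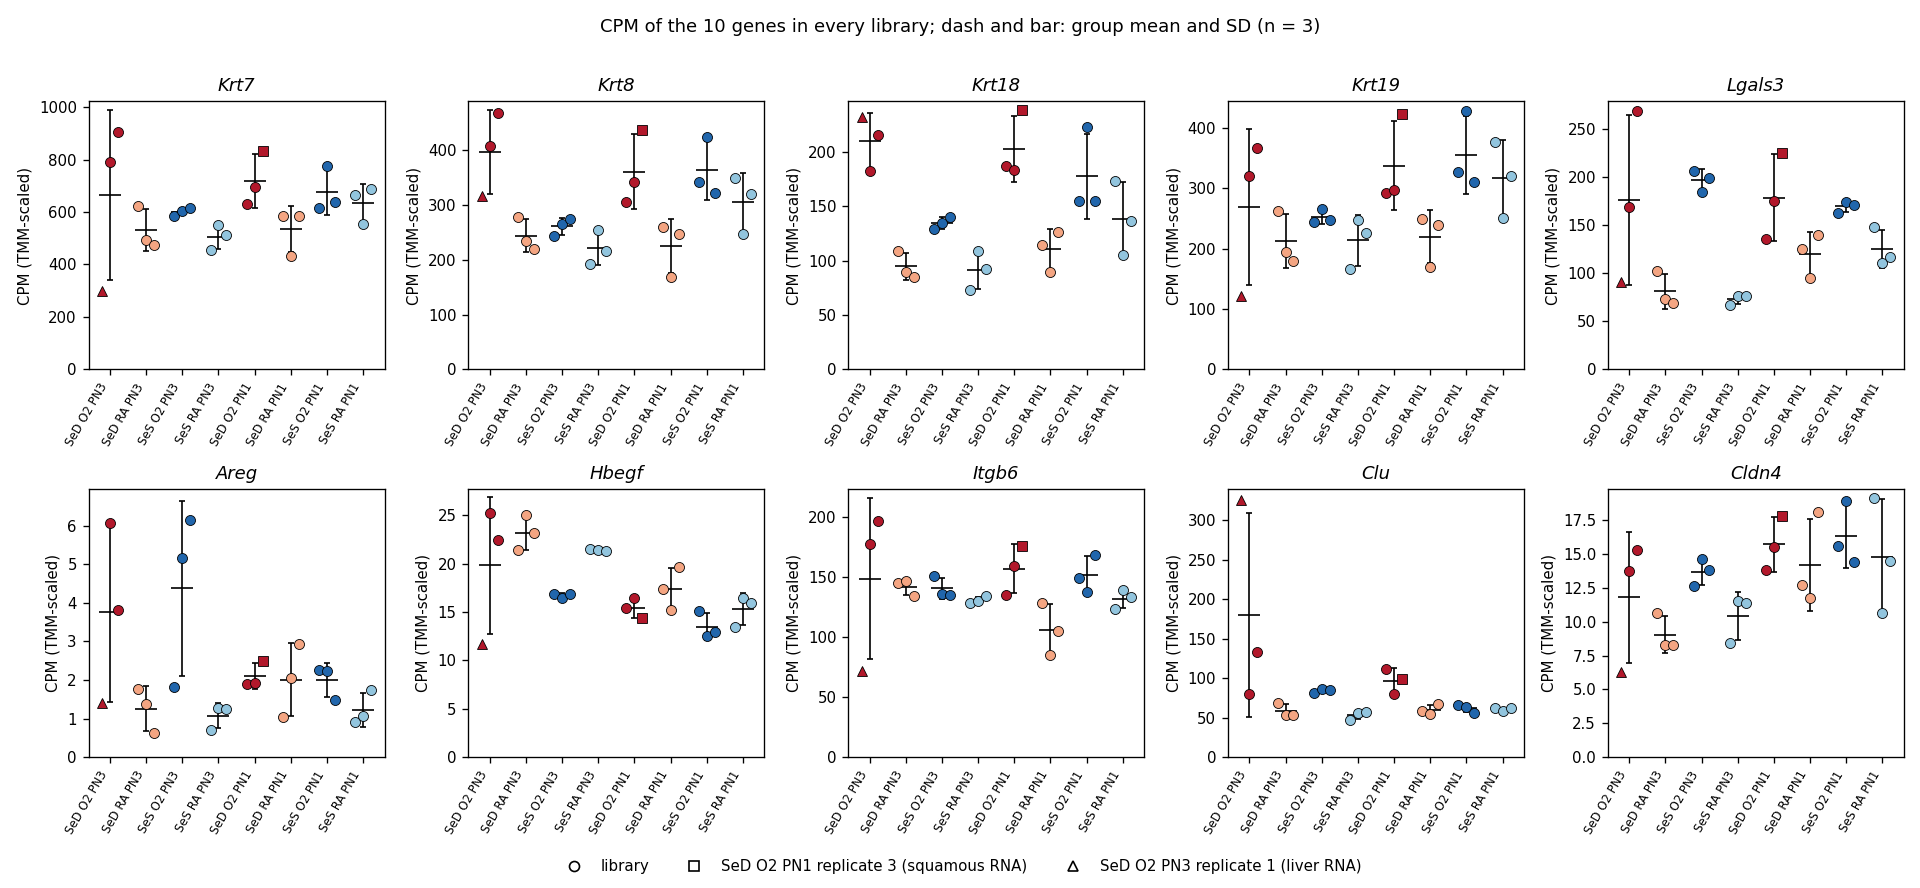
CPM of each of the 10 genes in the 24 libraries, with the mean and SD of each group of 3. Krt18 lay between 182 and 233 CPM in SeD O2 lungs at PN3, above the 85.4 to 109 CPM of SeD RA lungs, while the triangle (SeD O2 PN3 replicate 1) was the lowest of all 24 libraries for Krt7, Krt19, Hbegf, Itgb6 and Cldn4 and the highest for Clu.

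Krt18 rose in both diets. It measured 233, 182 and 216 CPM in SeD O2 lungs at PN3, against 109, 89.9 and 85.4 CPM in SeD RA lungs. In SeS lungs it measured 129, 135 and 141 CPM under O2 and 73.3, 109 and 92.3 CPM in RA. The groups did not overlap in either diet, and the log2 fold changes were 1.15 ± 0.19 (SE, n = 3 each, edgeR adjusted p = 0.000402) in SeD lungs and 0.56 ± 0.18 (edgeR adjusted p = 0.0288) in SeS lungs. Without the library rich in liver RNA the SeD value was 1.10 ± 0.19 (edgeR adjusted p = 0.00153). The SeS call was lost in 5 of the 24 fits that each left out 1 library, where the adjusted p reached 0.145. It was also lost when the library with conflicting oxygen labels was counted as room air (0.56, edgeR adjusted p = 0.0511) and when libraries were scaled to general epithelial genes (0.63, edgeR adjusted p = 0.0512).

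Krt8, its filament partner, measured 316, 408 and 468 CPM in SeD O2 lungs at PN3 and 277, 234 and 220.3 CPM in SeD RA lungs. Every O2 library lay above every RA library, by a log2 fold change of 0.70 ± 0.18 (edgeR adjusted p = 0.00565), or 0.87 ± 0.18 without the liver-rich library, whose value was 316 CPM (edgeR adjusted p = 0.00305). In SeS lungs Krt8 measured 244, 265 and 275 CPM under O2 and 193, 254 and 216 CPM in RA. These overlapped, and the log2 fold change of 0.24 ± 0.18 did not pass the test (edgeR adjusted p = 0.341).

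Krt7 and Krt19 did not pass the test at PN3 in either diet with all libraries in the fit. Krt7 measured 299, 792 and 904 CPM in SeD O2 lungs, against 622, 494 and 475 CPM in SeD RA lungs. Krt19 measured 122, 319 and 366 CPM in SeD O2 lungs, against 263, 194 and 179 CPM in SeD RA lungs. For both genes 2 O2 libraries lay above all 3 RA libraries and the liver-rich replicate 1 lay below them. Without it the log2 fold changes were 0.70 ± 0.15 for Krt7 (edgeR adjusted p = 0.00332) and 0.72 ± 0.21 for Krt19 (edgeR adjusted p = 0.017), against 0.33 and 0.34 with it. In SeS lungs the O2 libraries had no more than 882 CPM of liver genes, while RA replicate 3 held 955 CPM of Alb alone. Krt7 had 587, 603 and 615 CPM under O2 and 456, 552 and 511 CPM in RA in those lungs, and its log2 fold change was 0.25 ± 0.25 (edgeR adjusted p = 0.489). Krt19 had a log2 fold change of 0.24 ± 0.29 there (edgeR adjusted p = 0.574).

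The balance between the 2 filament partners was also compared, on a ratio chosen after its values were seen, and no comparison passed the test. Within a library the ratio of Krt18 to Krt8, both in RPKM, was 1.00, 0.61 and 0.63 in SeD O2 lungs at PN3, against 0.54, 0.52 and 0.53 in SeD RA lungs. It was 0.72, 0.69 and 0.70 in SeS O2 lungs, against 0.52, 0.58 and 0.58 in SeS RA lungs. The groups did not overlap in either diet, and 3 against 3 libraries gave a two-sided exact permutation p of 0.1, the smallest this design allows (Benjamini-Hochberg adjusted p = 0.133 over the 4 comparisons of this ratio). At PN1 the SeD O2 ratios (0.84, 0.73 and 0.74) also lay above those of SeD RA lungs (0.60, 0.73 and 0.70), with the closest pair 0.730 and 0.729, while the SeS groups overlapped (exact permutation p = 0.3). The value of 1.00 was that of the liver-rich library, and the other SeD O2 libraries at PN3, at 0.61 and 0.63, also lay above RA. In the liver-rich library Krt8 stood at 2.21 times Krt7 against 0.81 to 1.16 times in the other 23 libraries.

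**Figure D3:**
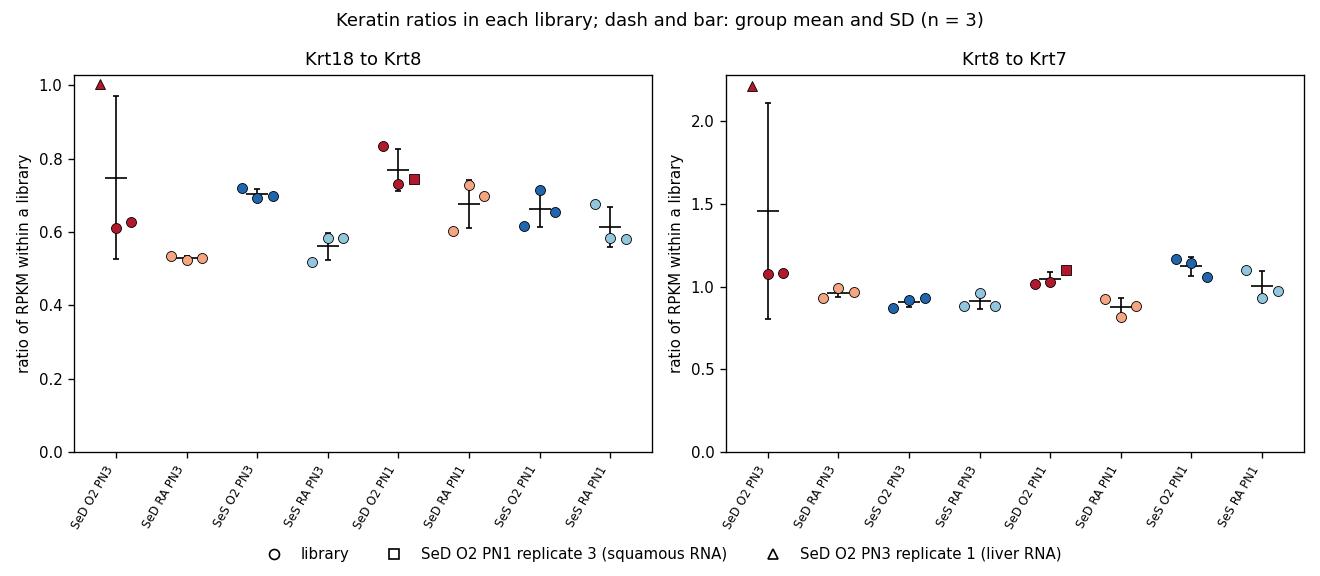
Ratio of Krt18 to Krt8 (left) and of Krt8 to Krt7 (right) within each library, from RPKM, with the mean and SD of each group of 3. At PN3 the Krt18 to Krt8 ratio was at least 0.61 in the 6 O2 libraries and at most 0.58 in the 6 RA libraries, and the liver-rich triangle was the highest in both panels.

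Of the EGF family ligands, Areg rose and Hbegf did not. Areg measured 1.4, 6.07 and 3.81 CPM in SeD O2 lungs at PN3 and 1.77, 1.37 and 0.616 CPM in SeD RA lungs. The liver-rich replicate 1 again lay within the RA range while the other pair stood above it, and the log2 fold change was 1.58 ± 0.50 (edgeR adjusted p = 0.0183). It was 2.00 ± 0.46 without replicate 1 (edgeR adjusted p = 0.00568) and 1.03 without replicate 2 (edgeR adjusted p = 0.122). The call was also lost without SeD RA PN3 replicate 2 (1.63, edgeR adjusted p = 0.0528) or replicate 3 (1.23, edgeR adjusted p = 0.0883), and with only the libraries compared in the fit (1.61, edgeR adjusted p = 0.117). In SeS lungs Areg measured 1.82, 5.16 and 6.15 CPM under O2 and 0.701, 1.27 and 1.25 CPM in RA, with no overlap and a log2 fold change of 2.02 ± 0.51 (edgeR adjusted p = 0.00834).

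Hbegf measured 11.7, 25.2 and 22.5 CPM in SeD O2 lungs at PN3 and 21.4, 25.1 and 23.2 CPM in SeD RA lungs. In SeS lungs it measured 16.9, 16.4 and 16.9 CPM under O2 and 21.5, 21.4 and 21.3 CPM in RA, a narrow spread with every O2 library lower. That log2 fold change of -0.36 ± 0.18 missed the threshold (edgeR adjusted p = 0.139). It passed when SeD O2 PN3 replicate 1 was left out of the shared fit (-0.32, edgeR adjusted p = 0.0258) and when only the libraries compared were fitted (-0.32, edgeR adjusted p = 0.0174). In SeD lungs Hbegf passed only without SeD O2 PN3 replicate 2 (-0.47, edgeR adjusted p = 0.0444).

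Lgals3 rose in both diets. It measured 91.2, 169 and 268 CPM in SeD O2 lungs at PN3 and 102, 72.8 and 68.8 CPM in SeD RA lungs. The liver-rich replicate was the lowest of the O2 libraries and overlapped RA, and the log2 fold change was 1.12 ± 0.27 (edgeR adjusted p = 0.0039), or 1.45 ± 0.20 without it. With only the libraries compared in the fit the call was lost (1.14, edgeR adjusted p = 0.102). In SeS lungs Lgals3 measured 207, 184 and 199 CPM under O2 and 67.2, 76.6 and 76 CPM in RA, with a log2 fold change of 1.42 ± 0.27 (edgeR adjusted p = 0.00199). Galectin-3 is also a macrophage product, and the macrophage list moved with it at PN3. Of its 10 genes, 7 were called higher under O2 in each diet, among them Marco (2.55 in SeD and 1.74 in SeS lungs) and Cd68 (0.86 and 1.44). Its summed level was 525 to 697 CPM in SeD O2 and 325 to 429 CPM in SeD RA lungs, and 558 to 595 CPM in SeS O2 and 330 to 414 CPM in SeS RA lungs. The part of macrophage RNA in the Lgals3 values was not tested.

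Clu measured 326, 80.3 and 133 CPM in SeD O2 lungs at PN3 and 68.6, 53.9 and 53.5 CPM in SeD RA lungs. All 3 O2 libraries lay above RA, and the highest value, 326 CPM, was that of the liver-rich library. The log2 fold change was 1.61 ± 0.31 with it (edgeR adjusted p = 0.00145) and 0.88 ± 0.15 without it (edgeR adjusted p = 0.00122). With only the libraries compared in the fit, the liver-rich one included, the call was lost (1.67, edgeR adjusted p = 0.117). In SeS lungs Clu measured 81.8, 87.0 and 85.7 CPM under O2 and 47.3, 55.5 and 56.8 CPM in RA, without overlap. That log2 fold change of 0.67 ± 0.31 did not pass with all libraries in the shared fit (edgeR adjusted p = 0.11) and passed when SeD O2 PN3 replicate 1, a library of neither SeS group, was left out (0.71, edgeR adjusted p = 0.00166), where its SE was 0.14.

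Itgb6 and Cldn4 did not pass at PN3 with all libraries in the fit. Itgb6 measured 72.0, 177 and 197 CPM in SeD O2 lungs and 145, 147 and 135 CPM in SeD RA lungs, with a log2 fold change of 0.07 ± 0.23. Cldn4 measured 6.32, 13.8 and 15.3 CPM in SeD O2 lungs and 10.6, 8.28 and 8.28 CPM in SeD RA lungs, with a log2 fold change of 0.38 ± 0.25. For both genes the liver-rich replicate was the lowest of the 6 libraries, and without it the log2 fold changes were 0.42 ± 0.13 (edgeR adjusted p = 0.0209) and 0.71 ± 0.20 (edgeR adjusted p = 0.0156). In SeS lungs Itgb6 differed by 0.10 ± 0.23 and Cldn4 by 0.39 ± 0.25 on the log2 scale, with no overlap between the O2 and RA libraries for either gene and adjusted p-values of 0.772 and 0.263 in edgeR.

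**Figure D4:**
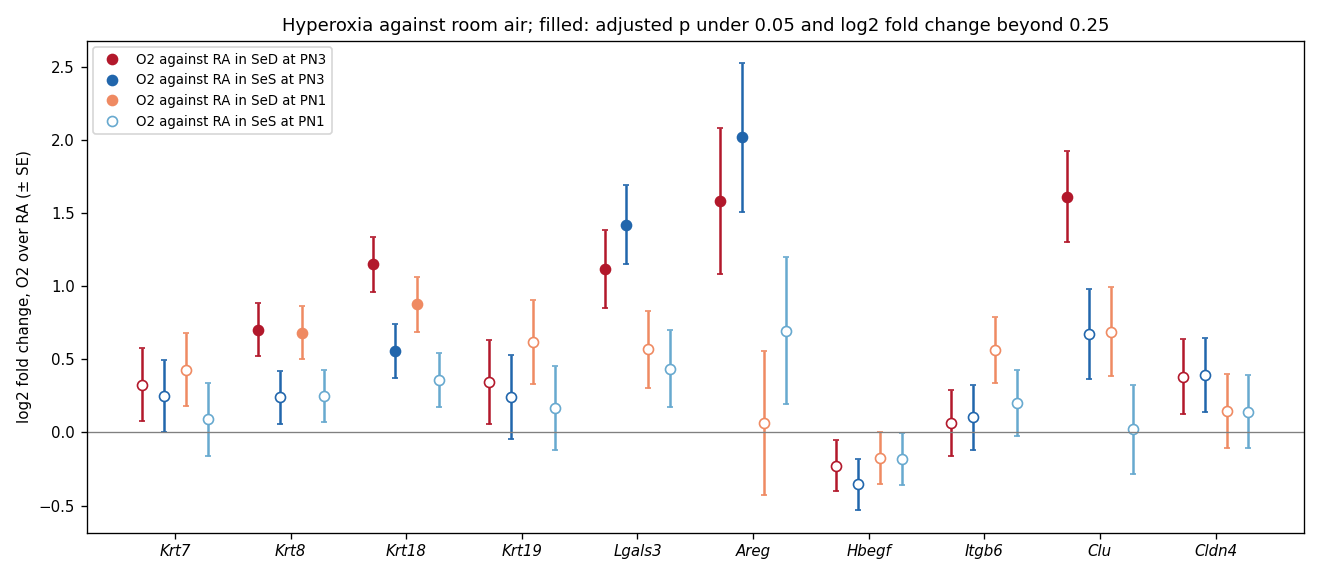
Log2 fold change of O2 over RA (± SE from the edgeR fit, 3 libraries against 3) for each gene in SeD and SeS lungs at PN3 and PN1, where filled points passed the test. At PN3 Areg reached 1.58 in SeD and 2.02 in SeS lungs, and Hbegf was the 1 gene below 0 in all 4 comparisons.

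Leaving out SeD O2 PN3 replicate 1 took the count in SeD lungs at PN3 from 5 to 9 of the 10, all but Hbegf, while the share of all genes tested that was called became 24.7%. General epithelial genes moved in the same fit: 4 of 12 (Epcam, Rab25, Ap1m2 and Spint1, with log2 fold changes of 0.42 to 0.69) were called higher without that library and 0 of 12 with it. In that library the 12 genes summed 653 CPM, the lowest of the 24, against 825 to 1279 CPM elsewhere. Whether the 4 genes gained (Krt7, Krt19, Itgb6 and Cldn4) changed more than the epithelial RNA as a whole was not tested.

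**Figure D5:**
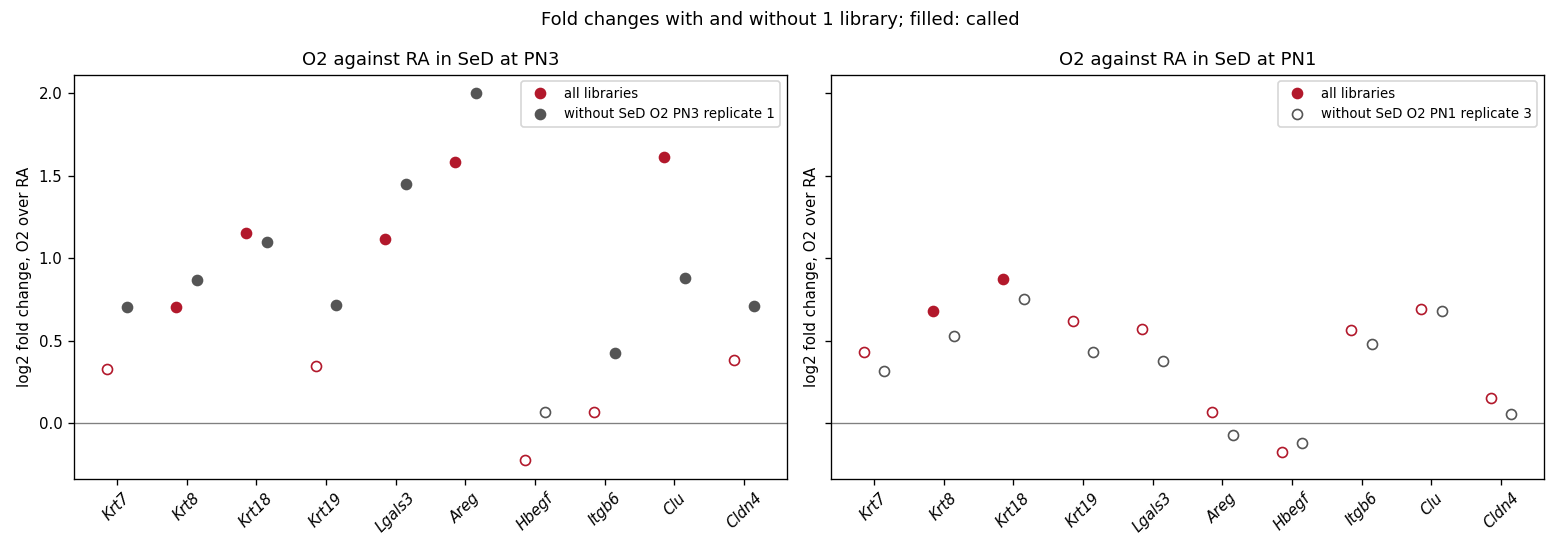
Log2 fold change of O2 over RA for each gene in SeD lungs at PN3 (left, with all libraries and without SeD O2 PN3 replicate 1) and at PN1 (right, with all libraries and without SeD O2 PN1 replicate 3), where filled points passed the test. Without the 1 library, calls went to 9 of 10 genes at PN3 and to 0 of 10 at PN1.

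At PN1 hyperoxia raised 2 of the 10 genes in SeD lungs, Krt8 and Krt18, where 2.5% of all genes tested were called (1.4% as higher and 1.1% as lower). No member was called in SeS lungs, where 0.0587% of all genes were called (0.0462% as higher and 0.0126% as lower). Krt18 measured 187, 183 and 238 CPM in SeD O2 lungs at PN1 and 115, 90.1 and 127 CPM in SeD RA lungs. Krt8 measured 305, 342 and 436 CPM in SeD O2 lungs and 259, 168 and 248 CPM in SeD RA lungs. Both were higher in all 3 O2 libraries, with log2 fold changes of 0.88 ± 0.19 (edgeR adjusted p = 0.0174) and 0.68 ± 0.18 (edgeR adjusted p = 0.0482).

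In the same comparison 4 of 12 tested genes of the upper squamous layers were called higher. The last O2 value of each gene was that of the library with squamous RNA. That library was the highest of its group for every member but Hbegf and Clu. Examples are Krt7 (831 CPM against 629 and 697), Krt19 (422 CPM against 292 and 296), Lgals3 (225 CPM against 135 and 175) and Itgb6 (176 CPM against 135 and 159). SeD O2 PN1 replicates 1 and 2 held 3932 and 2614 CPM of Alb. The part of liver or squamous RNA in these values was not tested. Without the squamous library neither Krt8 nor Krt18 was called. Krt18 had a log2 fold change of 0.75 ± 0.20 (edgeR adjusted p = 0.103) and Krt8 one of 0.53 ± 0.19 (edgeR adjusted p = 0.229), while 0.354% of all genes tested were called. Leaving out SeD RA PN1 replicate 2, the lowest of its group for Krt8 and Krt18, also ended both calls (0.68, edgeR adjusted p = 0.0681, and 0.45, edgeR adjusted p = 0.197). The Krt8 call was lost in 16 of the 24 fits that left out 1 library. Scaling the libraries to the 12 general epithelial genes also removed both calls, with log2 fold changes of 0.80 for Krt18 and 0.62 for Krt8. In the other direction, without SeD O2 PN3 replicate 1, a library of neither PN1 group, 7 of the 10 were called at PN1 (Krt7, Krt8, Krt18, Krt19, Lgals3, Itgb6 and Clu, log2 fold changes of 0.43 to 0.88), where 10.8% of all genes were called. With the squamous library left out as well, Krt18 kept its call. Itgb6 (0.44, edgeR adjusted p = 0.0269) and Clu (0.64, edgeR adjusted p = 0.0264) were also called in that fit, and Krt8 was not (0.49, edgeR adjusted p = 0.0865).

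In SeD lungs at PN1, 6 of the 10 (Krt7, Krt8, Krt18, Krt19, Itgb6 and Clu) were higher in every O2 library than in any RA library, a pattern shown by 13.1% of all genes tested. In SeS lungs this held for Lgals3 only, with 163, 174 and 171 CPM under O2 and 148, 110.5 and 117 CPM in RA, and for 19.7% of all genes. The unadjusted p was under 0.05 for 0 of the 10 in SeS lungs and for 3670 of all 23831 genes tested. There limma voom called 1 member (Lgals3, log2 fold change 0.48) and DESeq2 called 0. Areg measured 1.89, 1.92 and 2.48 CPM in SeD O2 lungs at PN1 and 1.05, 2.04 and 2.93 CPM in SeD RA lungs, and Hbegf measured 15.5, 16.5 and 14.3 CPM and 17.4, 15.3 and 19.6 CPM in the same groups. Both overlapped.

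With all libraries in the fit, no member passed the threshold between the diets at either age. In O2 at PN3, SeD against SeS lungs differed by 0.64 ± 0.18 for Krt18 (edgeR adjusted p = 0.0846), by 0.60 ± 0.18 for Krt8 (edgeR adjusted p = 0.0875) and by 1.08 ± 0.31 for Clu (edgeR adjusted p = 0.0847) on the log2 scale, where 0.143% of all genes were called (0.0504% as higher and 0.0923% as lower). Krt18 and Krt8 lay higher in all 3 SeD libraries than in any SeS library. The share of all genes with that pattern was not computed for this comparison. Krt18, Krt8 and Clu had an unadjusted p under 0.05, as did 3782 of all 23831 genes tested. DESeq2 called all 3 while limma voom called none. Without SeD O2 PN3 replicate 1 the differences were 0.56 for Krt18, 0.74 for Krt8 and 0.32 for Clu (edgeR adjusted p of 0.421, 0.148 and 0.657). Without replicate 2 Krt18 (0.72, edgeR adjusted p = 0.029) and Clu (1.42, edgeR adjusted p = 0.00586) were called, and without replicate 3 Clu was called (1.27, edgeR adjusted p = 0.027), both fits that keep the liver-rich library. In RA at PN1, where 14.6% of all genes were called (13.3% as higher and 1.3% as lower), Areg had the largest fitted difference (0.71, edgeR adjusted p = 0.449). Krt19 measured 249.7, 169.8 and 239 CPM in SeD lungs and 377, 251 and 320.5 CPM in SeS lungs. Its log2 fold change of -0.53 ± 0.29 did not pass (edgeR adjusted p = 0.285), nor did that of Krt8, at -0.44 ± 0.18 (edgeR adjusted p = 0.119), the 1 member with an unadjusted p under 0.05. Of all 23831 genes tested there, 5966 had an unadjusted p under 0.05. DESeq2 and limma voom called no member in that comparison. In O2 at PN1 Clu alone had an unadjusted p under 0.05, with 112, 80.2 and 99.2 CPM in SeD and 66.3, 63.4 and 56.1 CPM in SeS lungs, and in RA at PN3 no member did. In each of these 2 comparisons 0.0126% of all genes were called, all of them lower. An unadjusted p under 0.05 was found for 1076 of 23831 genes in O2 at PN1 and for 624 in RA at PN3. No member was called in either comparison by edgeR, DESeq2 or limma voom.

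The difference between diets in the response to O2 was tested as an interaction, and no member, like no other gene tested, was called at PN3 or at PN1. At PN3 the closest members were Clu (0.94 ± 0.43) and Krt18 (0.59 ± 0.26), with unadjusted p-values of 0.0429 and 0.0343 and edgeR adjusted p-values of 0.602 and 0.581. Without SeD O2 PN3 replicate 1 the Clu interaction was 0.17, that of Krt18 was 0.50 and that of Krt8 was 0.59, and none was called. At PN1 no member had an unadjusted p under 0.05, and limma voom called Clu in that comparison. Over all 23831 genes tested, the unadjusted p was under 0.05 for 1946 at PN3 and for 4072 at PN1. Krt8 and Clu passed the O2 test at PN3 in SeD and not in SeS lungs, but the test of that difference did not pass for either gene.

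Between PN3 and PN1 no member was called in any of the 4 conditions with all libraries in the fit. In SeS RA lungs Lgals3 measured 67.2, 76.6 and 76 CPM at PN3, against 148, 110.5 and 117 CPM at PN1, a log2 fold change of -0.77 ± 0.26 (edgeR adjusted p = 0.166), and Krt18 had one of -0.60 ± 0.18 (edgeR adjusted p = 0.115). Hbegf in those lungs measured 21.5, 21.4 and 21.3 CPM at PN3 and 13.4, 16.5 and 16 CPM at PN1, a log2 fold change of 0.49 ± 0.18 (edgeR adjusted p = 0.2). In that comparison 1.15% of all genes were called (0.743% as higher and 0.403% as lower), and DESeq2 called 2 members and limma voom 5. An unadjusted p under 0.05 was found for 4 members and for 3162 of all 23831 genes tested. In SeD RA lungs, where 21.8% of all genes were called (5.28% as higher and 16.5% as lower), Cldn4 was closest with 10.6, 8.28 and 8.28 CPM at PN3 and 12.7, 11.8 and 18.1 CPM at PN1 (log2 fold change -0.65 ± 0.25, edgeR adjusted p = 0.0746). There 3 members had an unadjusted p under 0.05, as did 8017 of all 23831 genes tested. That member count lies close to the share over all genes. DESeq2 called 2 members and limma voom 4. In SeD O2 lungs 2.71% of all genes were called (0.336% as higher and 2.38% as lower), and DESeq2 and limma voom called 1 member each. The unadjusted p was under 0.05 there for 1 member and for 4163 of all genes. In SeS O2 lungs 0.185% were called (0.0797% as higher and 0.105% as lower), and DESeq2 called 0 members and limma voom 2. The unadjusted p was under 0.05 there for 3 members and for 2337 of all genes. The interaction of gas and age called no member in either diet, against 17.9% of all genes in SeD lungs (14.9% as higher and 3.01% as lower) and 0 in SeS lungs. An unadjusted p under 0.05 was found for 1 member in SeS (Lgals3, 0.99 ± 0.37) and 2 in SeD lungs (Areg, 1.52 ± 0.70, and Clu, 0.92 ± 0.43). Over all 23831 genes tested it was found for 2204 in SeS and 7308 in SeD lungs. DESeq2 called no member and limma voom 1 in each diet. Without SeD O2 PN3 replicate 1 the interaction in SeD lungs was 0.19 ± 0.21 for Clu, which was not called, and Lgals3 (0.88 ± 0.27, edgeR adjusted p = 0.042) and Areg (1.93 ± 0.62, edgeR adjusted p = 0.0474) were called. For PN3 against PN1 that fit called Hbegf in SeD O2 lungs (0.63), Lgals3, Hbegf, Itgb6 and Cldn4 in SeD RA lungs (-0.59, 0.39, 0.39 and -0.67) and Lgals3 and Hbegf in SeS RA lungs (-0.77 and 0.49). The shares of all genes in this paragraph are for the fit with all libraries. None is given here for the fit without that library, so its calls have no background beside them.

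Averaged over both ages, O2 raised 4 members in SeD lungs (Krt8 by 0.69 ± 0.13, Krt18 by 1.01 ± 0.13, Lgals3 by 0.84 ± 0.19 and Clu by 1.15 ± 0.22) and 3 in SeS lungs (Krt18 by 0.46 ± 0.13, Lgals3 by 0.93 ± 0.19 and Areg by 1.36 ± 0.36), all on the log2 scale. The shares of all genes called were 25.7% and 26.1% (16.5% and 18.7% as higher, 9.18% and 7.42% as lower). Without SeD O2 PN3 replicate 1 the SeD count was 9, all but Hbegf, with Krt8 at 0.78 ± 0.12, Krt18 at 0.99 ± 0.13, Lgals3 at 1.01 ± 0.14 and Clu at 0.79 ± 0.10. The shares of all genes above are for the fit with all libraries. No share is given here for the fit without that library, so the count of 9 has no background beside it. The Krt18 call in SeS lungs was lost (0.26, edgeR adjusted p = 0.245) when the library with conflicting oxygen labels was counted as room air. SeD against SeS lungs over both ages gave no call of a member with all libraries, where 0.155% of all genes were called in O2 and 0.0126% in RA. In O2 the closest was Clu at 0.87 ± 0.22 (edgeR adjusted p = 0.0616), and DESeq2 called 2 members and limma voom 1. An unadjusted p under 0.05 was found there for 3 members and for 3370 of all 23831 genes tested. Without SeD O2 PN3 replicate 1 the Clu difference was smaller, at 0.50 ± 0.10, and was called (edgeR adjusted p = 0.0367), as was Hbegf (0.37 ± 0.08, edgeR adjusted p = 0.0475). Clu was also called without replicate 2 (1.04) or replicate 3 (0.98) of that group. In RA no member had an unadjusted p under 0.05, against 2191 of all genes, and neither DESeq2 nor limma voom called any member.

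The rest of the pathway was read from lists of other genes. Of 20 further genes of the transitional state, O2 at PN3 raised 7 and lowered 1 in SeD lungs and raised 4 and lowered 1 in SeS lungs. Over all genes tested, 35.9% were called in SeD lungs (23.7% as higher and 12.2% as lower). In SeS lungs 27.6% were called (16.1% as higher and 11.5% as lower), so the total counts of the list lie near these shares. The strongest of the list were Cdkn1a, which encodes the cell cycle inhibitor p21 (log2 fold change 2.16 in SeD and 1.83 in SeS lungs), and Gdf15, a stress-induced cytokine (2.42 and 2.86). Nupr1, a stress-induced nuclear protein, rose by 0.67 and 0.89, and Plaur, the urokinase receptor, by 0.51 and 0.58. Krt20 was called in SeD lungs through the liver-rich library alone (20.8 CPM there, 0.36 and 0.031 CPM in the other O2 libraries). Without that library Krt20 was not called and the SeD count was 9 higher and 1 lower. At PN1 Nupr1 alone was called, in SeD lungs (0.94), and without the squamous library none was. The members' medians at PN3 (0.54 in SeD and 0.32 in SeS lungs) stood beside list medians of 0.45 and 0.39.

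Among 19 tested ligands, receptors and feedback genes of the EGF system, O2 at PN3 raised 5 and lowered 2 in SeD lungs and raised 4 and lowered 2 in SeS lungs. These counts lie close to the shares over all genes tested, which were 35.9% in SeD and 27.6% in SeS lungs. The ligand gene Nrg1 rose in SeD lungs (1.06). The ligand genes Nrg4 (1.4 in SeD, 1.25 in SeS lungs), Ereg (1.11 and 1.16) and Btc (0.65 and 0.80) rose in both diets, and the receptor gene Erbb2 (-0.53 and -0.62) and Rhbdf1, an inactive rhomboid protein that takes part in ligand shedding (-0.53 and -0.39), fell in both. Nrg4 reached 3.95 CPM in the liver-rich library against 1.29 and 1.57 CPM in the other SeD O2 libraries, and it was not among the 5 that were higher in SeD lungs without that library. The SeD counts were 5 higher and 2 lower without it as well. At PN1 none rose, and Spry4 (-0.97) and Dusp6 (-0.54), feedback inhibitors of the pathway that EGF receptors drive, fell in SeD lungs, a pair of calls that was lost without the squamous library.

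With all libraries in the fit, none of 12 general epithelial genes was called in either diet at either age. Their medians at PN3 were 0.03 in SeD and -0.04 in SeS lungs. Without the liver-rich library Epcam, Rab25, Ap1m2 and Spint1 were called higher in SeD lungs at PN3, as given above. Of 9 other claudins, Cldn12 (0.62) and Cldn1 (2.37) were called at PN3 in SeD lungs and Cldn8 (0.55) in SeS lungs. Cldn1 was at 166 CPM in the liver-rich library against 12.3 and 10.9 CPM in the other SeD O2 libraries, and was not called without it (-0.04). None of 8 mesothelial genes, from another keratin-rich lining, was called at PN3 in either diet with all libraries, and 3 (Msln, Wt1 and Aldh1a2) were called higher in SeD lungs without the liver-rich one. Marker lists of lung epithelium were read at PN3 with all libraries in the fit, the liver-rich one included. There 0 of 10 alveolar type 2 genes were called in either diet and 1 of 10 alveolar type 1 genes in SeD lungs (Igfbp2). RNA of another organ also moved in SeS lungs at PN3, where 6 of 8 thymus genes were called lower, with a summed level of 5.88 to 33.9 CPM in O2 and 34.1 to 360.5 CPM in RA lungs, and its part in the members' values was not tested.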

How the data were processed

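Lung RNA of 24 pups (8 groups of 3) had been sequenced by the authors as stranded poly(A) libraries. Per the labels and the study's methods, reads were checked with FastQC, trimmed with Trimmomatic, aligned with HISAT2 to GRCm39 and counted per gene with featureCounts. The strand setting and annotation release are not given in the sources used here. The deposited values are whole-number counts for 57010 genes in 24 columns, with no normalization by the authors. All columns were used. The deposited sheets with the authors' own fold changes and p-values were not used. Genes took their symbols from the deposited annotation sheet and their positions and canonical transcript lengths from GENCODE on GRCm39. Other genes lie on the opposite strand of Krt7, Krt8, Krt19, Hbegf, Itgb6 and Clu. Of these the counts hold Scara3 beside Clu with 7068 counts over all libraries, Gm671 beside Krt7 with 687 and Gm36026 beside Krt8 with 250.

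Counts were fitted with edgeR 4.0.16 (R 4.3.3) as 8 group means: filterByExpr with a minimum count of 10, TMM factors, quasi-likelihood fit with robust estimation of the spread (chosen after the design was written) and contrasts tested by F-test. Fitted fold changes used a prior count of 0.125, SE is the absolute log2 fold change over the square root of F, and 3 libraries a group and a common biological coefficient of variation of 0.26 limit the precision. A gene was called at a Benjamini-Hochberg adjusted p under 0.05 over 23831 genes and a log2 fold change beyond 0.25, the thresholds the study used. CPM are counts scaled to library size with TMM factors and RPKM divide them by canonical transcript length. Members and gene lists were chosen with earlier results of these data known. From each list up to 4 genes with the smallest unadjusted p in a comparison were named, and further genes were named where 1 library decided them or where a count was small, after their values were seen. The ratio of Krt18 to Krt8 was also chosen after seeing the data and tested with an exact permutation test, two-sided. The genes closest to each member are genes averaging 5 CPM or more whose centred log2 CPM group means (0.5 CPM added) differ least from the member's by root mean square. Alternatives were DESeq2 1.42.0, limma 3.58.1 voom with quality weights, median-ratio factors, no filter, a replicate block, the compared groups only, libraries left out, the doubtful library moved, and, added after seeing the data, no robust estimation, scaling to 12 epithelial genes, and leaving out the squamous and liver-rich libraries together. The scripts were tested on simulated data.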

Additional observations from a re-analysis of the deposited data

How the results depend on the processing

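No call of a member turned round. The share of all genes called under each alternative is not given in this section. The member counts therefore do not show whether members changed more than other genes. With all libraries the counts for O2 against RA were 5 in SeD and 3 in SeS lungs at PN3, 2 in SeD and 0 in SeS lungs at PN1, and 4 in SeD and 3 in SeS lungs over both ages. With limma voom these were 8 in SeD and 7 in SeS lungs at PN3, 1 in SeS lungs at PN1, and 9 in SeD and 7 in SeS lungs over both ages. Of the members called in SeS lungs with voom, with only the libraries compared or with libraries left out together, at PN3 and over both ages, 1 was lower (Hbegf) in each count and the others higher. For PN3 against PN1, where calls ran in both directions, voom called 1 member in SeD O2, 4 in SeD RA, 2 in SeS O2 and 5 in SeS RA lungs, and it called 1 for the interaction of diet and gas at PN1, 1 for the interaction of gas and age in each diet, and 1 for SeD against SeS in O2 over both ages. DESeq2 called 3 for SeD against SeS in O2 at PN3, 2 over both ages, and for PN3 against PN1 1 in SeD O2, 2 in SeD RA and 2 in SeS RA lungs. Fitting only the libraries compared gave 2 in SeD and 7 in SeS lungs at PN3, 0 in SeD lungs at PN1, 5 in SeS lungs over both ages, for PN3 against PN1 1 in SeD RA, 2 in SeS O2 and 1 in SeS RA lungs, and 2 for the interaction of gas and age in SeS lungs. Dropping the 3 libraries highest in Alb gave 9 in SeD and 5 in SeS lungs at PN3, 7 in SeD lungs at PN1, 9 in SeD and 5 in SeS lungs over both ages, and for PN3 against PN1 4 in SeD RA and 2 in SeS RA lungs. Leaving out the squamous and the most Alb-rich library together gave 9 in SeD and 5 in SeS lungs at PN3, 7 in SeD and 5 in SeS lungs over both ages, for PN3 against PN1 1 in SeD O2, 4 in SeD RA and 2 in SeS RA lungs, 1 for the interaction of gas and age in SeD lungs, 1 for SeD against SeS in O2 over both ages, and 3 members lower for SeD against SeS in RA at PN1 (Krt8, Krt19 and Itgb6).

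For O2 against RA in SeD lungs at PN1 the count was 1 with no filter, with the replicate block, with the doubtful library moved and without robust estimation, and 0 when scaled to epithelial genes. For PN3 against PN1, moving that library gave 1 in SeS RA lungs, and in SeD RA lungs median-ratio factors gave 1 and epithelial scaling 2. Leaving out robust estimation gave 1 for SeD against SeS in O2 over both ages. Counts for O2 against RA also shifted within 1.5 times. In SeD lungs at PN1 the count was 3 with voom and 3 without the squamous and most Alb-rich libraries. In SeS lungs at PN3 it was 2 with the doubtful library moved and 2 with epithelial scaling. Over both ages it was 5 in SeD lungs with DESeq2 or epithelial scaling, and 2 in SeS lungs with the doubtful library moved. Leaving out 1 library at a time gave 4 to 9 in SeD and 2 to 5 in SeS lungs at PN3, 0 to 7 in SeD lungs at PN1, 4 to 9 in SeD and 3 to 4 in SeS lungs over both ages, 0 to 2 for SeD against SeS in O2 at PN3 and over both ages, for PN3 against PN1 0 to 1 in SeD O2, 0 to 4 in SeD RA and 0 to 2 in SeS RA lungs, 0 to 2 for the interaction of gas and age in SeD lungs, and 0 in the other comparisons. The highest O2 counts, 9 at PN3 and 7 at PN1 in SeD lungs, came without SeD O2 PN3 replicate 1. The cause was not tested. Same-numbered libraries did not deviate together on average (the mean correlation was 0.05 at PN1, where other pairs had -0.03, and -0.06 at PN3, where other pairs had 0.03). With 3 libraries a group these means cannot settle whether the numbers pair libraries. The replicate block changed no other count of members beyond 1.5 times. Scaling to epithelial genes put the median log2 fold change of all genes at 0.14 for O2 against RA in SeD lungs at PN3, against 0.05 as reported, and at 0.28 for PN3 against PN1 in O2 in both diets. Depth limits Areg most, with as few as 20 counts in a library.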

Other observations

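The genes whose means over the 8 groups ran closest to each member, out of 12590 others with at least 5 CPM on average, were compared as a description over 8 group means that share the libraries. For Krt18 they were Dsg2, a desmosomal cadherin, Mpzl2 and Mgst1, a membrane-bound glutathione transferase, with root mean square differences of 0.080 to 0.090 in log2 CPM, where the group means of Krt18 varied by 0.44. For Krt8 they were Pls1, Dbi and Steap2 (0.092 to 0.097), for Krt7 Degs1, Golm1 and Rnf181 (0.028 to 0.034) and for Krt19 Sh2d4a, Neu3 and Gm44250 (0.054 to 0.060).

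For Areg the 3 nearest were Cd68, Il1rn and Cd200r1 (0.16 to 0.19), which are genes of macrophages and other myeloid cells, and for Hbegf they were Cx3cr1, Pianp and Slc7a8 (0.066 to 0.079). For Lgals3 they were Rragd, Hapln1 and AW551984 (0.13 to 0.15). For Clu they were C1ra, a complement protease subunit that liver also makes, Inhba and Got1 (0.081 to 0.12), and the group mean of Clu in SeD O2 lungs at PN3 rests in part on the liver-rich library. Itgb6 ran closest to Zfp35, Frk and Zfp426 (0.044 to 0.051) and Cldn4 to Odad1, a ciliary gene, Spaar and Smim22 (0.054 to 0.072).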
